A study of Mus musculus with 48 samples.

Results

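Collagens are the triple-helical chains that make up most of the fibrous extracellular matrix. The 41 genes described here are every gene of the deposited count table whose symbol is Col, digits, a, digits, out of 20300 genes. The rule rests on names alone, though it was chosen with earlier results of these data known. By known structure, 10 of them make fibrils, 6 make the type IV network of basement membranes, 9 sit on the surface of fibrils and 5 make beaded filaments. A further 3 are multiplexin or anchoring collagens, 4 span the membrane, 2 form short-chain networks and 2 fit none of these. In the cells kept, all 41 had at least 1 UMI (a counted mRNA molecule), 26 had at least 100 and 8 had fewer than 20, with 26183 collagen UMIs in total.

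The data are single-cell 3′ RNA counts from GL261 gliomas, a mouse glioma line grown in the striatum of male C57BL/6 mice that were 6 weeks old at implantation. The implanted cells carried either a negative control shRNA (shNC) or an shRNA against P-selectin, the product of Selp (shSELP), and the study asks what tumor-cell P-selectin does to the cells around the tumor. Brains of 3 mice per group were pooled at day 16 by the labels, or day 17 by the methods. CD11b-positive cells, the remaining CD45-positive cells and the cancer cell fraction were separated with magnetic beads and mixed in equal amounts, and 2 libraries were made per group. The labels do not say if these 2 were drawn from different pools.

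Libraries are given throughout in the order shNC 1, shNC 2, shSELP 1, shSELP 2, and the numbers only tell the libraries of a group apart. They held 22945972, 22626413, 17398121 and 25589350 UMIs in 2289, 2297, 2293 and 2293 cells, and 2183, 2179, 2190 and 2174 cells were kept. Pairs of these libraries shared 0 to 3 cell barcodes. Cell numbers were made near equal by the authors and the fractions were mixed by hand, so shares of cell types are not compared between groups.

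Fibrils of types I, II, III, V and XI carry tension in bone, cartilage, skin and vessel walls, while type IV chains form the sheet under endothelium. Healthy brain tissue holds little fibrillar collagen, and its collagen lies mostly in the basement membranes shared by endothelial and mural cells (pericytes and smooth muscle) and in the meninges. Chains are hydroxylated and folded in the endoplasmic reticulum, trimmed outside the cell, cross-linked by lysyl oxidases and bound by integrins.

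Cells were assigned to classes by how many of a list of known non-collagen markers they expressed. A class is therefore a range and not a proven type. Tumor cells (4 of 12 markers) numbered 281, 193, 55 and 52, and mural cells (5 of 10) numbered 4, 11, 76 and 27. Endothelial cells (5 of 12) numbered 17, 25, 321 and 64, and fibroblasts (3 of 12) numbered 10, 1, 23 and 1. Myeloid cells (6 of 8) numbered 1075, 988, 876 and 1044, and lymphoid cells (3 of 12), which served as the background level, numbered 523, 580, 457 and 531. Tumor cells were thus most numerous in the shNC libraries, and 321 of the 427 endothelial and 76 of the 118 mural cells came from shSELP 1. Cells exactly at the gate numbered 116, 3, 16, 9, 403 and 103 in the order tumor, mural, endothelial, fibroblast, myeloid, lymphoid, and unassigned cells 1 marker below it numbered 134, 1, 12, 13, 270 and 51. Genes outside the gates were checked against the class names. Pdgfrb, a receptor of mural cells and fibroblasts, was at 455, 688, 1037 and 491 CPM (UMIs per 1000000 UMIs of the class in that library) in mural cells. Pecam1, an endothelial adhesion molecule, was at 676, 682, 731 and 679 CPM in endothelial cells. Ptprc, which encodes CD45, was at 3.42, 2.15, 0 and 2.94 CPM in tumor cells and between 356 and 390 CPM in myeloid cells.

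The targeted gene was barely seen in tumor cells. Selp had 1, 1, 0 and 1 UMIs there, so its knockdown could not be read at this depth. Most of the Selp UMIs of tumor and vessel cells lay in endothelial cells, with 8, 12, 0 and 0 UMIs, or 80.7, 74.4, 0 and 0 CPM. Endothelial Selp was thus seen in both shNC libraries and in neither shSELP library, although shSELP 1 had the most endothelial cells. Myeloid cells, the largest class, had 5, 6, 3 and 7 Selp UMIs, or 0.393, 0.475, 0.31 and 0.413 CPM. Lymphoid cells had 0, 2, 0 and 4.

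Summed over the 41 genes, collagen UMIs were densest in fibroblasts, then mural, tumor and endothelial cells, and far lower in myeloid and lymphoid cells. Fibroblast values were 14368, 865, 5124 and 4488 CPM, where shNC 2 and shSELP 2 each hold 1 cell, so the mean of 9746 ± 6536 CPM (SD, n = 2) uses the other libraries. With looser gates that mean was 6044 CPM. Mural cells were at 2985, 4745, 1599 and 3143 CPM, a mean of 3118 ± 1287 (SD, n = 4). In shNC 1 the mural value rests on 59 collagen UMIs in 4 cells, where 1 UMI is worth 50.6 CPM. Tumor cells were at 1783, 1304, 1225 and 1124 CPM (mean 1359 ± 292, SD, n = 4) and endothelial cells at 2048, 1277, 963 and 919 CPM (mean 1302 ± 522, SD, n = 4). Tumor and endothelial cells thus do not differ beyond the spread of their libraries, and both lie below mural cells in 4 of 4 libraries. Myeloid cells were at 49.5, 35.7, 48.5 and 37.1 CPM (mean 42.7 ± 7.31, SD, n = 4), above lymphoid cells at 28.5, 22, 23.9 and 26.6 CPM (mean 25.2 ± 2.87, SD, n = 4) in 4 of 4 libraries. Counting at the 3′ end does not scale with gene length, and CPM of different collagens are set side by side on that basis. Whether all genes are counted equally well at that end was not tested.

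Over the 4 libraries together, tumor cells held the most collagen UMIs. They made up 6.66% of kept cells and held 10.4% of all UMIs and 52.9% of collagen UMIs. Fibroblasts held 11.3%, myeloid cells 8.32%, endothelial cells 8.29% and mural cells 5.36%. By library the tumor share of collagen UMIs was 66.3%, 72.3%, 19.8% and 22.9%, and in shSELP 1 endothelial cells held more, 26.5%. These shares depend on the gate, which counted 281, 193, 55 and 52 tumor cells. With looser gates tumor cells numbered 296, 213, 60 and 105, and with Seurat clusters in place of gates 353, 282, 107 and 184. Relative to the clusters the gate thus took fewest in shSELP 2. Cells in no class held 3.56, 4.89, 4.73 and 12.8% of collagen UMIs. The fibroblast share was 17.7%, 0.034%, 16.4% and 0.33%. In shSELP 2 myeloid cells held 18.8%, mural cells 17.3% and endothelial cells 11.6%.

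A share of cells with a UMI depends on depth, so cells were also thinned to 2000 UMIs each. At equal depth 83.7% of tumor cells (exact 95% interval 80.4 to 86.6), 89.0% of mural, 75.4% of endothelial and 100% of fibroblast cells had at least 1 collagen UMI. The same share was 9.06% in myeloid and 5.80% in lymphoid cells. Unthinned, the shares were 98.1, 94.1, 84.8, 100, 36.9 and 16.2%, at median depths of 16384, 2766, 3724, 7998, 11639 and 5592 UMIs, in the order tumor, mural, endothelial, fibroblast, myeloid, lymphoid. Cells too shallow to thin numbered 10, 27, 89, 2, 43 and 91.

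**Figure D1:**
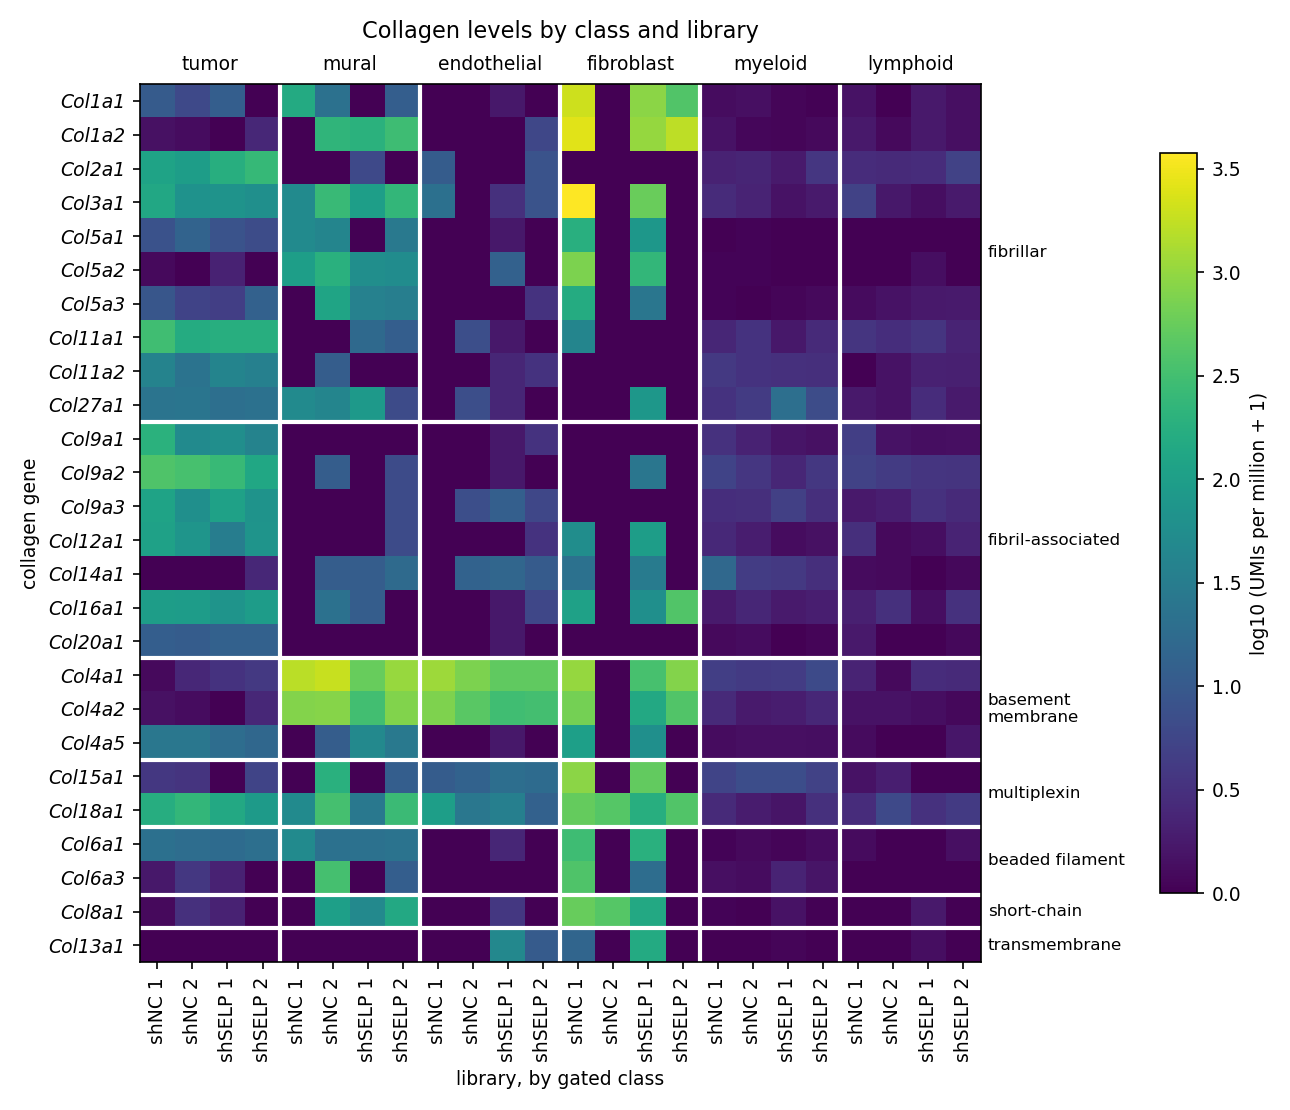
Heat map of the 26 collagens with at least 100 UMIs (one per line, grouped by role) in 6 cell classes and 4 libraries each, as log10 of CPM plus 1. Tumor cells fill most fibril-associated lines and Col2a1 and Col11a1, mural and endothelial cells fill Col4a1 and Col4a2, and fibroblasts fill most fibrillar lines.

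The mix of roles differed between most classes. In tumor cells 49.0% of collagen UMIs came from fibril-associated genes, 35.2% from fibrillar genes, 12.5% from multiplexin and anchoring genes and 1.75% from the type IV network. By library the fibril-associated share was 51.4, 47.9, 44.2 and 37.3% and the fibrillar share 36.1, 29.7, 40.1 and 49.6%, so the order turned in shSELP 2. In mural cells 60.8% and in endothelial cells 86.8% came from the type IV network. In fibroblasts 63.1% came from fibrillar genes. Myeloid and lymphoid cells had 33.7% and 36.0% fibrillar, 33.6% and 36.8% fibril-associated and 14.0% and 8.63% type IV network UMIs, and the myeloid fibrillar share ran from 21.3 to 48.6% over libraries.

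The tumor cells expressed the chain set known from cartilage. Type IX collagen is a fibril-associated heterotrimer of Col9a1, Col9a2 and Col9a3 that decorates type II fibrils. Col9a2 (chr4:121039385-121055322, mm10) had the most UMIs of the tumor collagens over the 4 libraries together, 22.4%, and was at 389, 337, 252 and 134 CPM. In shSELP 2 it lay below Col2a1 and Col11a1. Col9a1 was at 192, 51.2, 57.4 and 38.2 CPM and Col9a3 at 117, 59.5, 110 and 67.7 CPM. All 3 chains were thus present in every library, with Col9a1 highest in shNC 1 by far and no order of groups in Col9a3. The ratio of Col9a2 to Col9a1 UMIs was 2.03, 6.59, 4.40 and 3.50, so the chains did not keep 1 ratio between libraries. At 2000 UMIs per cell 39.4% of tumor cells had Col9a2, against 0.75% of lymphoid cells.

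The fibrils that type IX sits on in cartilage contain types II and XI. Col2a1, the type II chain, was at 118, 97.5, 171 and 250 CPM in tumor cells, higher in both shSELP libraries than in both shNC libraries. Col11a1 was at 302, 157, 171 and 172 CPM and its partner Col11a2 at 38.4, 21.8, 40.7 and 35.3 CPM. Both overlap between groups, and shNC 1 holds the high value of Col11a1. Col11a1 had 7.05 times the UMIs of Col11a2 in tumor cells (95% interval 6.24 to 7.99), against 0.683 times in myeloid cells. By library the ratio was 7.88, 7.2, 4.21 and 4.88 in tumor cells and 0.486, 1.0, 0.333 and 0.829 in myeloid cells.

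Other fibrillar chains were uneven in tumor cells. Col3a1, the homotrimeric type III chain of skin and vessel walls, was at 137, 65.3, 67 and 60.3 CPM, with shNC 1 apart from the rest. Col1a1 had 68 UMIs and Col1a2, its partner in type I, had 4, a ratio of 17 (95% interval 6.34 to 64.2). In fibroblasts, which make the type I heterotrimer, the same ratio was 0.802 (441 and 550 UMIs, 95% interval 0.706 to 0.91). In mural cells it was turned around at 0.0625 (7 and 112 UMIs, 95% interval 0.0246 to 0.133). There it was 0.0952 in shNC 2, 0.0 in shSELP 1 and 0.037 in shSELP 2, while shNC 1 had no Col1a2 UMI. Tumor cells were likewise rich in Col6a1 (174 UMIs) over Col6a2 (8 UMIs), 2 chains of beaded type VI filaments, with a ratio of 21.8 against 2.09 in fibroblasts.

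Among the remaining tumor collagens, Col18a1, the basement membrane multiplexin that yields endostatin, was at 169, 235, 145 and 86.8 CPM. Col12a1 and Col16a1, both fibril-associated, were at 111, 73, 32.3 and 70.6 CPM and at 97, 93.5, 69.4 and 94.1 CPM. Col18a1 and Col12a1 were lower in both shSELP libraries than in both shNC libraries, while shNC 2 and shSELP 2 nearly met in Col12a1 and in Col16a1 the groups overlapped. The 10 leading members held 92.5% of tumor collagen UMIs. The tenth of tumor cells with the most collagen held 28.6% of it in counts that were not thinned, so the expression was spread over the class.

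Against myeloid cells, the largest class, tumor cells were higher in 19 and lower in 4 of the 32 collagens tested (edgeR on library sums, adjusted p under 0.05). Of all 12091 genes tested, 32.9% were higher and 33.8% lower. The median log2 difference of the collagens was 3.43, or 3.83 with undetected genes set at their bound, against -0.01 over all genes, and DESeq2 gave 19 and 3. Of fibrillar genes 8 of 10 were higher and 0 lower, and of fibril-associated genes 6 of 7 were higher and 1 lower. By edgeR the log2 difference was 6.16 ± 0.26 (SE) for Col11a1 (adjusted p = 1.58e-17), 5.89 ± 0.22 for Col2a1 (adjusted p = 7.15e-18) and 5.82 ± 0.24 for Col9a2 (adjusted p = 1.31e-17). Each was higher in tumor cells in 4 of 4 libraries.

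The 4 collagens that were lower in tumor than in myeloid cells were Col14a1, Col15a1, Col4a1 and Col4a2. Col14a1, a fibril-associated collagen of skin and tendon, had 1 UMI in all tumor cells and 296 in myeloid cells. Col4a1, a type IV chain, had 10 UMIs in 581 tumor cells, 1, 5, 2 and 2 by library, and Col4a2 had 4. The type IV gene that tumor cells did express was Col4a5, at 25.1, 24.8, 17.9 and 14.7 CPM. The edgeR difference of Col4a2 was -2.29 ± 0.72 (SE) with an adjusted p of 0.00641, and it did not pass without shNC 1 (-2.1, adjusted p = 0.0527, range over 14 alternatives 0.000411 to 0.278). With thinned cells Col15a1 (-1.33, adjusted p = 0.179), Col4a1 (-1.85, adjusted p = 0.0694) and Col4a2 (-3.4, adjusted p = 0.0711) did not pass, nor did Col15a1 with DESeq2 (-1.85, adjusted p = 0.0659). Against myeloid cells with microglial genes alone, a split made after the values were seen, Col14a1, Col4a1 and Col4a2 did not pass, at -1.92, -0.42 and -1.44 (adjusted p = 0.144, 0.765 and 0.278).

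Vessel-wall cells carried the type IV heterotrimer, made of Col4a1 and Col4a2 chains. In mural cells Col4a1 was at 1619, 1900, 557 and 1064 CPM and Col4a2 at 810, 842, 307 and 797 CPM. In endothelial cells Col4a1 was at 1140, 750, 501 and 504 CPM and Col4a2 at 767, 459, 297 and 325 CPM. Both shNC libraries lie above both shSELP libraries for each gene in each class, though Col4a2 in mural cells does so by a narrow gap. The ratio of Col4a1 to Col4a2 UMIs was 1.71 in mural cells (95% interval 1.48 to 1.98), 1.63 in endothelial cells (1.49 to 1.8) and 1.66 in fibroblasts (1.32 to 2.09), but 3.18 in myeloid cells (2.4 to 4.28). Within mural cells it ran from 1.34 (1.07 to 1.67) in shSELP 2 to 2.26 (1.73 to 2.96) in shNC 2. Both genes lie head to head on chromosome 8, where the annotation overlaps them by 22 bases, and whether counting was strand-aware is not stated. At equal depth 62.6% of mural and 52.1% of endothelial cells had Col4a1, against 0.2% of lymphoid cells.

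Mural cells differed from endothelial cells in fibrillar collagen. Col1a2, the type I chain, was at 0, 216, 193 and 295 CPM in mural cells and had 2 UMIs in 427 endothelial cells. Col5a2, a type V chain that nucleates fibrils, was at 101, 185, 57.3 and 54.6 CPM in mural cells. Col3a1 was at 50.6, 267, 99 and 235 CPM in mural cells. The zero for Col1a2 is in shNC 1, where a floor of 3 counts is 152 CPM. The shNC 1 value of Col5a2, from 2 UMIs, lies below that floor too, so no order of groups is read from it. In counts that were not thinned, the top 12 of 118 mural cells held 68.6% of the collagen UMIs. Cell depth enters such a share, and its part was not tested. Col18a1 in mural cells, at 50.6, 329, 26 and 273 CPM, had 84 of its 88 UMIs in 12 cells, and Col6a3, a type VI chain, had all 34 UMIs in 6 cells (0, 329, 0 and 10.9 CPM). Acta2, the smooth muscle actin, also varied between libraries in mural cells, at 253, 1859, 1125 and 8693 CPM, and its part in the collagen values was not tested.

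Against tumor cells, mural cells were higher in 14 and lower in 9 of 32 collagens (edgeR), where 14.8% of all genes were higher and 19.2% lower. The median log2 difference was 0.76, or 1.24 with bounds, against -0.27 over all genes, and DESeq2 gave 14 and 8. Type IV genes were higher in 4 of 5, and fibril-associated genes were lower in 6 and higher in 1 of 7. By edgeR Col4a2 was higher by 10.40 ± 0.44 (SE, adjusted p = 3.66e-16) and Col1a2 by 8.73 ± 0.55 (adjusted p = 8.29e-13), while Col9a2 was lower at -6.06 ± 0.58 (adjusted p = 3.46e-09). Col9a1 had 0 UMIs in mural cells and was at least 19.4-fold higher in tumor cells (3 counts over the class as the floor), or at least 7.94-fold without shNC 1, which held 840 of the 1081 tumor UMIs. Col3a1 was higher in mural cells by 1.20 ± 0.35 (edgeR, adjusted p = 0.0094). That call was lost without shNC 2 (0.92, adjusted p = 0.122) and without shSELP 2 (0.83, adjusted p = 0.203), with thinned cells (0.73, adjusted p = 0.275) and without the highest Scrublet scores (1.02, adjusted p = 0.075), in a range of 0.000127 to 0.275 over 12 alternatives.

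Against mural cells, endothelial cells were lower in 13 and higher in 1 of 32 collagens (edgeR), where 8.77% of all genes were lower and 11.4% higher. The median was -2.83, or -3.0 with bounds, against 0.141 over all genes, and DESeq2 gave 15 lower and 0 higher. Of 10 fibrillar genes 7 were lower, among them Col1a2 at -7.39 ± 0.63 (SE, adjusted p = 7.5e-10) and Col3a1 at -5.09 ± 0.59 (adjusted p = 1.66e-07). Col4a1 and Col4a2 did not pass in this comparison, at -0.59 ± 0.29 (adjusted p = 0.172) and -0.45 ± 0.24 (adjusted p = 0.205). Without shSELP 1, the library with the most vessel cells, edgeR called both lower, Col4a1 at -0.85 (adjusted p = 0.0394, range 0.0394 to 0.691) and Col4a2 at -0.74 (adjusted p = 0.0314, range 0.0314 to 0.887). Col18a1 was lower at -2.09 ± 0.56 (adjusted p = 0.00673). It did not pass without shNC 2 (-1.76, adjusted p = 0.0676) or without shSELP 2 (-1.22, adjusted p = 0.187), and with thinned cells it was at -0.23 (adjusted p = 0.939), in a range of 6.26e-09 to 0.939.

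The 1 collagen that was higher in endothelial than in mural cells was Col13a1, a transmembrane collagen. It was at 0, 0, 46.3 and 9.5 CPM in endothelial cells, with 66 of its 70 UMIs in shSELP 1 and all 70 in 17 cells. It had 0 UMIs in mural and tumor cells, so over all libraries endothelial cells were at least 5.45-fold above mural and at least 101-fold above tumor cells. Without shSELP 1 the first bound was 0.588, too low to tell the classes apart, and the second was 16.3. DESeq2 did not call it (adjusted p = 0.926, the top of a range from 0.00217). Fibroblasts also expressed it, at 13.7, 0, 151 and 0 CPM.

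Fibroblasts, only 35 cells, had the highest pooled level of fibrillar collagens. Col3a1 was at 3765, 0, 566 and 0 CPM, Col1a2 at 2570, 0, 1036 and 1632 CPM and Col1a1 at 1993, 0, 903 and 408 CPM. The zeros and the values of shNC 2 and shSELP 2 rest on 1 cell each, so the shSELP effect in fibroblasts was not tested. Col15a1, a multiplexin of the outer basement membrane, was at 886, 0, 518 and 0 CPM, and Col4a1 at 1010, 0, 343 and 816 CPM. In both libraries with more than 1 cell all 5 genes were present, and each was higher in shNC 1. The 4 cells with the most collagen held 51.1% of the UMIs, in counts that were not thinned.

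Against mural cells, fibroblasts were higher in 10 and lower in 0 of 32 collagens (edgeR), where 3.48% of all genes were higher and 2.18% lower. The median was 1.75, or 2.13 with bounds, against -0.01, and 16 collagens had an unadjusted p under 0.05 while DESeq2 gave 8 higher and 0 lower. Of 10 fibrillar genes 5 were higher, led by Col1a1 at 5.98 ± 0.49 (SE, adjusted p = 7.03e-09) and Col1a2 at 3.14 ± 0.37 (adjusted p = 2.68e-06), and Col15a1 was higher by 4.24 ± 0.57 (adjusted p = 1.45e-05). Each of these 3 was higher in fibroblasts in 2 of 2 libraries compared. Col4a1 was not called, at -0.56 (adjusted p = 0.524). Col5a2, higher by 2.13 ± 0.56 (adjusted p = 0.0203), did not pass without shNC 1 (1.19, adjusted p = 0.593, range 0.000102 to 0.788). It also did not pass with DESeq2, thinned cells, stricter gates or looser gates, at 2.1, 1.16, 1.58 and 1.83 (adjusted p = 0.571, 0.788, 0.267 and 0.112).

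Lymphoid cells set the level that myeloid collagens were held against. Myeloid cells were higher in 8 and lower in 0 of 32 collagens (edgeR), where 30.3% of all genes were higher and 25.1% lower, and the unadjusted count was also 8. The median was 0.28, or 0.25 with bounds, against 0.034, and DESeq2 gave 8 and 0. The 8 were Col14a1, Col15a1, Col27a1, Col11a2, Col4a1, Col4a2, Col9a3 and Col6a3, the last with 31 UMIs against 0, at least 3.09-fold. Without shSELP 1 that bound was 1.92. Col9a2 was at 4.17, 2.69, 1.45 and 2.77 CPM in myeloid and 4.15, 3.14, 2.57 and 2.49 CPM in lymphoid cells. It was not called, at 0.25 (adjusted p = 0.553), and the share of cells with it at equal depth was 0.609% against 0.75%.

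The 3 myeloid collagens with the most UMIs over the 4 libraries together stood above the lymphoid background in every library. Col15a1 was at 4.33, 5.94, 6 and 4.13 CPM, level across libraries, and edgeR placed it 4.0 ± 0.65 (SE) above lymphoid cells (adjusted p = 6.44e-06). Col14a1 was at 15, 3.33, 2.89 and 2.06 CPM, with 191 of its 296 UMIs in shNC 1. Lymphoid cells had 3 Col14a1 UMIs, which makes the ratio over all libraries, carried mostly by shNC 1, 29.5 (95% counting interval 9.99 to 144). Col27a1, a fibrillar collagen known from cartilage, was at 2.36, 3.17, 19 and 5.72 CPM. Both shSELP libraries were above both shNC libraries for Col27a1, and shSELP 1 stood far above the rest. Calls lost without 1 library were Col4a2 without shSELP 2 (1.43, adjusted p = 0.088, range 0.000583 to 0.397) and Col9a3 without shNC 2 (0.89, adjusted p = 0.0881, range 0.00251 to 0.235). With thinned cells Col4a2, Col9a3 and Col11a2 were lost, at 1.35, 0.88 and 1.81 (adjusted p = 0.198, 0.235 and 0.0502), as was Col4a2 with clusters (1.37, adjusted p = 0.0747) and Col9a3 with stricter gates (0.78, adjusted p = 0.124).

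Col27a1 and Col14a1 marked different myeloid cells. Myeloid cells were split, after these values were seen, by whether they expressed at least 3 of 5 known microglial genes (P2ry12, Sall1, Siglech, Gpr34, Crybb1). Those that did numbered 53, 81, 252 and 94, or 4.93, 8.2, 28.8 and 9.0% of myeloid cells, so shSELP 1 held the most. In cells with these genes Col27a1 was at 38.9, 26.1, 63.4 and 66.9 CPM. In cells without them Col27a1 was at 0.74, 0.616, 2 and 0.638 CPM. The first values exceed the second in every library, by a ratio of 62.1 overall (95% counting interval 44.5 to 88.6), and 88.6% of myeloid Col27a1 UMIs lay in the microglial-gene cells. Median depths were 9148, 14772, 8230 and 11178 UMIs with the genes and 11186, 10603, 10110 and 15610 without. Col14a1 ran the other way, with 0, 1, 3 and 0 UMIs in cells with the genes and 15.7, 3.61, 3.58 and 2.23 CPM in cells without (ratio 0.109, 95% counting interval 0.0296 to 0.283). Without shNC 1 that ratio was 0.257 (0.0686 to 0.678). In cells with the genes a floor of 3 counts is 5.56, 2.37, 1.12 and 2.31 CPM. In shSELP 2 this floor lies above the 2.23 CPM of Col14a1 in the other cells, so no order is read in that library. Col4a1 was lower with the genes (ratio 0.198, interval 0.0635 to 0.469). Col11a1, with 2 UMIs in cells with the genes, had a ratio of 0.195 (interval 0.0232 to 0.726). Its ratio was 0.0997 without shNC 1 and 0.296 (0.0349 to 1.12) without shNC 2, where the interval includes equal levels. Col6a3 (ratio 7.48, interval 3.45 to 16.2) and Col15a1 (ratio 1.69, interval 1.19 to 2.33) were higher.

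The split changed the comparison with lymphoid cells. By edgeR, Col27a1 was 3.06 ± 0.52 (SE) above lymphoid cells over all myeloid cells (adjusted p = 1.03e-05). It was at 0.19 without the microglial-gene cells (adjusted p = 0.797) and 5.69 with these cells alone (adjusted p = 2.48e-12). With clusters in place of gates it was at 0.8 and did not pass (adjusted p = 0.114), with adjusted p from 3.01e-16 to 0.797 over 14 alternatives. Col14a1 was at 4.82 ± 0.66 over all myeloid cells (edgeR, adjusted p = 4.42e-07). It was at 4.8 without the microglial-gene cells (adjusted p = 2.08e-07) and 1.4 with these cells alone (adjusted p = 0.247), in a range of 5.16e-18 to 0.247.

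**Figure D2:**
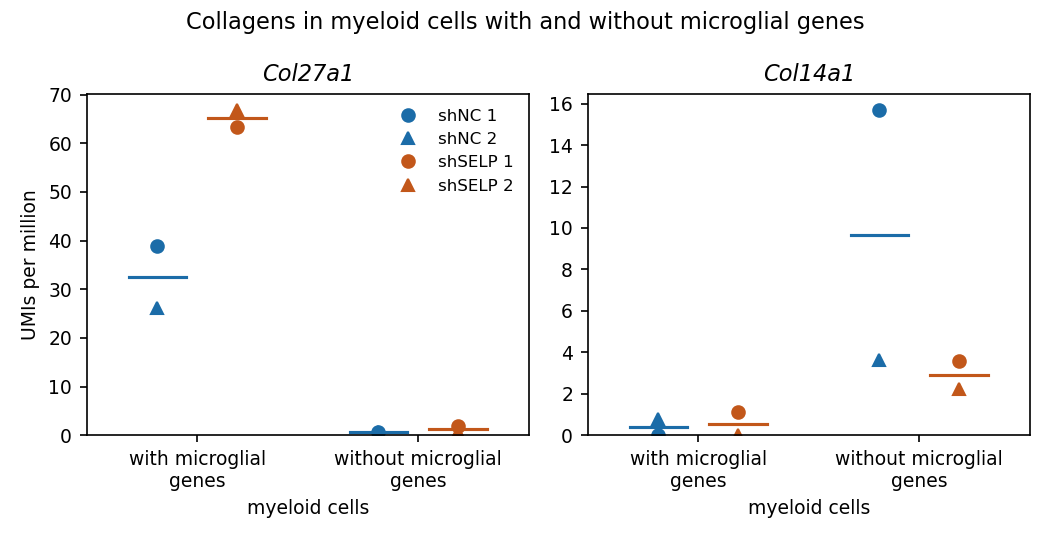
Col27a1 and Col14a1 in CPM in each library, for myeloid cells with and without at least 3 of 5 microglial genes. Col27a1 lies between 26.1 and 66.9 with the genes and at most 2 without, and Col14a1 is highest in shNC 1 without them.

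The comparison of shSELP with shNC asks how the collagens of each class differed after the knockdown in tumor cells. With 2 libraries against 2, an exact permutation test could not go below a p of 0.333 (two-sided), so the calls rest on edgeR, fitted over all genes of a class. In tumor cells edgeR called 0 of 17 collagens tested and DESeq2 called 0, with 5 at an unadjusted p under 0.05. Of 9979 genes tested, 0.0601% were called and 13.5% had an unadjusted p under 0.05. Libraries did not overlap for 5 collagens lower in shSELP (Col9a2, Col18a1, Col12a1, Col4a5, Col27a1) and 2 higher (Col2a1, Col20a1), beside 20.5% and 26.0% of all genes. The median log2 difference was -0.42 against -0.005 over all genes. Seurat placed the tumor class in 2 clusters, counted over all kept cells, with 232, 167, 44 and 32 cells in one and 121, 115, 63 and 152 in the other. The mix of these clusters over all kept cells thus differed between libraries. These counts do not give the mix within the gated tumor cells, and its part in the tumor values was not tested.

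The tumor differences ran in both directions. Col2a1, given above as 118, 97.5, 171 and 250 CPM, was at 0.90 ± 0.21 (SE, edgeR, adjusted p = 0.156). Over 13 alternatives its log2 difference ran from 0.07 with stricter gates to 1.13 without shSELP 1, and its adjusted p from 0.00426 to 0.963. Col9a2 was at -0.95 ± 0.27 (adjusted p = 0.207), Col18a1 at -0.84 ± 0.26 (adjusted p = 0.224) and Col9a1 at -1.40 ± 0.55 (adjusted p = 0.317). None passed. Single libraries moved this: without shNC 2, edgeR called 5 collagens lower (Col9a1, Col3a1, Col11a1, Col9a2, Col12a1), with Col9a1 at -2.09 (adjusted p = 3.6e-06, range over 13 alternatives 1.05e-06 to 0.999). Without shNC 1, Col9a1 was at -0.13. Without shSELP 1 it called 1, Col9a2 at -1.52 (adjusted p = 0.0387, range 0.000233 to 0.444). Mural markers in tumor cells summed to 176, 112, 73 and 57.4 CPM, with Gm13889 the most abundant in both shNC libraries (162 and 97.5 CPM), Rgs5 in shSELP 1 and Cspg4 in shSELP 2, and 4, 4, 2 and 7 of the 10 markers at 0. Gm13889 was called lower (edgeR, -2.77, adjusted p = 0.019). Oligodendrocyte markers in tumor cells summed to 232, 417, 500 and 434 CPM and astrocyte markers to 51.1, 28.8, 61 and 73.5 CPM. Both sums were higher in both shSELP libraries. The markers of these 2 lists that were tested ran from -1.18 (Mog, edgeR, adjusted p = 0.536) to 6.4 (Slc1a2, adjusted p = 0.0624), and none was called. The part of these markers was not tested.

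**Figure D3:**
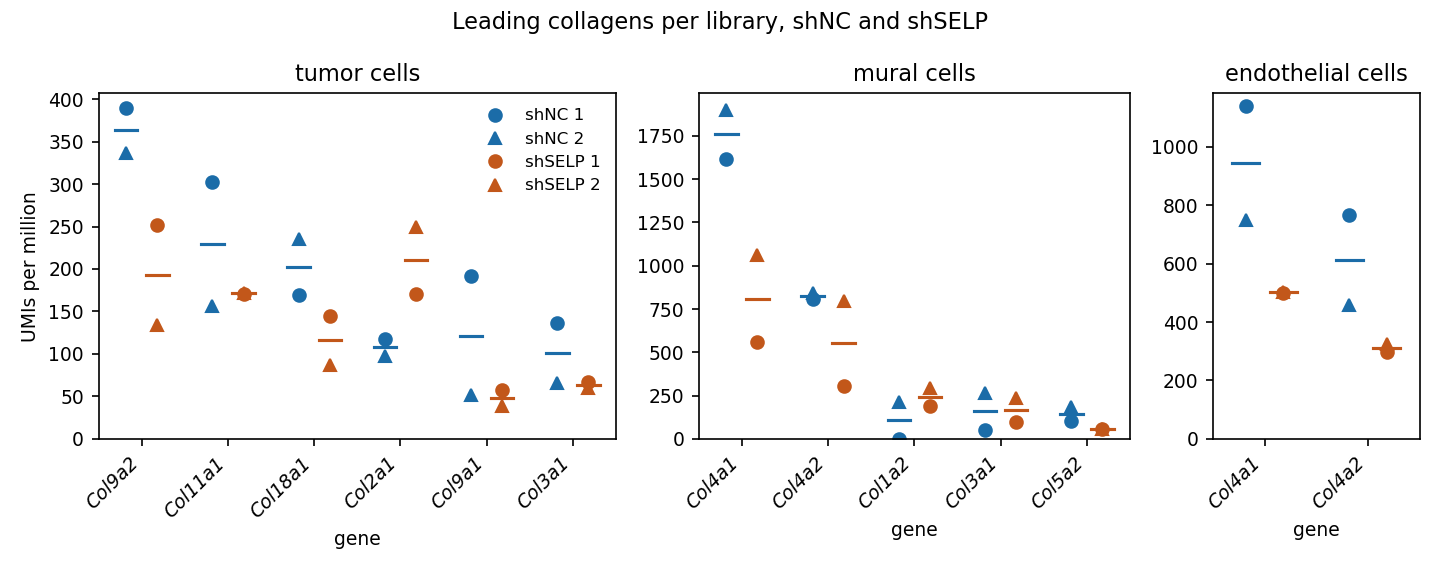
Selected collagens in CPM in tumor, mural and endothelial cells, 1 point per library and a short line at each group's mean. In tumor cells Col9a2 lies at 389 and 337 in shNC and 252 and 134 in shSELP, and Col2a1 lies the other way.

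In endothelial cells, edgeR called 0 of the 2 collagens that were abundant enough to test, and DESeq2 called 0, with 2 at an unadjusted p under 0.05. Of 4806 genes tested, 0.791% were called and 15.0% had an unadjusted p under 0.05. Col4a1 (1140, 750, 501 and 504 CPM) was at -0.91 ± 0.22 (SE, edgeR, adjusted p = 0.106) and Col4a2 (767, 459, 297 and 325 CPM) at -0.96 ± 0.24 (adjusted p = 0.116). Both were lower in 2 of 2 shSELP libraries, as were 22.7% of all genes, while 0 collagens and 25.7% of all genes were higher in both. Their median was -0.94 against 0.011 over all genes. Without shNC 2 edgeR called both, Col4a1 at -1.14 (adjusted p = 9.35e-07, range over 12 alternatives 9.35e-07 to 0.447) and Col4a2 at -1.26 (adjusted p = 2e-06, range 2e-06 to 0.523). That fit rests on the 17 endothelial cells of shNC 1 alone for its group, and only 2 of them stayed when cells with the highest Scrublet scores (a doublet score) were left out. Without shNC 1, Col13a1 entered the fit through its shSELP UMIs alone, with none in the shNC library left, so no call is read from it. Col4a1 passed with the replicate block (-0.90, adjusted p = 0.0492).

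Of the markers of mural cells, Rgs5 was higher in shSELP in these endothelial cells. The markers summed to 182, 55.8, 356 and 190 CPM, with 6, 8, 2 and 1 of the 10 at 0, and the most abundant were Abcc9, Gm13889, Rgs5 and Rgs5. Rgs5 was at 20.2, 12.4, 251 and 152 CPM and rose by 3.73 (edgeR, adjusted p = 0.0167). Serpinh1, the collagen chaperone, was at 414, 465, 264 and 273 CPM and was not called (-0.74, adjusted p = 0.128). Tumor markers in these cells summed to 90.8, 149, 45.6 and 61.8 CPM and lymphoid markers to 50.4, 18.6, 11.2 and 7.13 CPM. Both sums were lower in both shSELP libraries. Myeloid markers, at 262, 55.8, 132 and 49.9 CPM, overlapped between groups. The part of Rgs5 and of these other markers in the type IV values was not tested.

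In mural cells edgeR called 0 of 7 collagens tested and DESeq2 called 0, with 1 at an unadjusted p under 0.05. Of 2698 genes tested, 0.0% were called and 10.6% had an unadjusted p under 0.05. By CPM alone, libraries did not overlap for 3 collagens lower in shSELP and 0 higher, beside 23.4% and 21.2% of all genes counted in the same way. Leaving aside Col5a2, whose shNC 1 value lies below the floor, 2 were lower (Col4a1 and Col4a2). The median was -0.47 against 0.082. Col5a2 was at -1.49 ± 0.48 (SE, edgeR, adjusted p = 0.392) and Col4a1 at -1.01 ± 0.45 (adjusted p = 0.476). Col6a3, which was not among the 7, was high in shNC 2 and entered fits that left out 1 library. No call is read from it there, since it passed the filter through shNC 2. Without shSELP 2 Col18a1 was at -3.09, in a log2 range of -3.09 to 1.88 over 11 alternatives. Col18a1 and Col3a1 changed sign without shNC 2, to 1.88 and 2.02. Tumor markers in mural cells summed to 607, 359, 193 and 191 CPM, with Tubb2b the most abundant in each library. Endothelial markers summed to 810, 945, 797 and 633 CPM and fibroblast markers to 455, 51.3, 182 and 136 CPM. Of the tumor markers tested, Tubb2b was at -1.18 (edgeR, adjusted p = 0.447) and Tubb3 at -1.0 (adjusted p = 0.728). Of the endothelial markers tested, Flt1 was at -1.3 (edgeR, adjusted p = 0.397), while Esam was at 0.45 (adjusted p = 0.681) and Emcn at 0.09 (adjusted p = 0.975). None of these was called. The part of these markers was not tested.

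In myeloid cells edgeR called 0 of 15 collagens tested and 4 had an unadjusted p under 0.05, while DESeq2 called 1, Col27a1. Of 11500 genes tested, 0.0% were called by edgeR and 10.3% had an unadjusted p under 0.05. Libraries did not overlap for 5 collagens lower in shSELP and 1 higher, beside 24.0% and 18.1% of all genes, and the median was -0.22 against 0.012. Col27a1 (2.36, 3.17, 19 and 5.72 CPM) was at 2.12 ± 0.55 (SE, edgeR, adjusted p = 0.372), and passed without shSELP 2 (2.76, adjusted p = 0.0109, range over 14 alternatives 0.00187 to 0.991). P2ry12, one of the microglial genes, was at 34.4, 38.4, 174 and 40.9 CPM in all myeloid cells, high in shSELP 1 like Col27a1. Within the microglial-gene cells Col27a1 was at 1.07 (adjusted p = 0.159). Col14a1 was at -1.92 ± 0.69 (edgeR, adjusted p = 0.43), with its high value in shNC 1. Tumor markers in myeloid cells summed to 38.8, 40.8, 21.9 and 35.3 CPM, lower in both shSELP libraries. H19, one of them, was at -2.25 and was not called (edgeR, adjusted p = 0.289). The other tumor markers tested lay between -0.65 (Ptprz1, adjusted p = 0.706) and 0.08 (Tubb3, adjusted p = 0.964), and none was called. The part of these markers in the myeloid values was not tested.

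Whether a collagen responded differently in 2 classes was tested directly. Between tumor and myeloid cells edgeR called 1 of 23 collagens, Col27a1, beside 1.16% of 12968 genes. It was at 22.8, 23.6, 19.1 and 20.6 CPM in tumor cells, nearly level, and its log2 shSELP difference there minus that in myeloid cells was -2.38 ± 0.45 (SE, adjusted p = 0.00326). DESeq2 called 0. The call was lost without shSELP 1 (-1.40, adjusted p = 0.21), where Col9a2 and Col18a1 were called. It was also lost without the microglial-gene cells (-1.12, adjusted p = 0.498) and with these cells alone (-1.38, adjusted p = 0.124), in a range of 4.7e-08 to 0.498 over 13 alternatives. Between mural and tumor cells edgeR called 0 of 20, beside 0.662% of 7252 genes, and DESeq2 called 0. An unadjusted p under 0.05 (edgeR) was reached by 1 of the 20, beside 8.4% of all genes.

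Of 46 listed genes that hydroxylate, fold, trim, cross-link or bind collagen, 45 were in the table. Between shSELP and shNC, edgeR called 0 of 34 tested in tumor, 15 in mural, 11 in endothelial and 25 in myeloid cells, and DESeq2 called 0 in each. An unadjusted p under 0.05 was reached by 7, 2, 3 and 1 of them, beside 13.5, 10.6, 15.0 and 10.3% of all genes. Between classes 39 were tested: 24 were higher and 6 lower in tumor than in myeloid cells (beside 32.9% and 33.8% of all genes), and 11 higher and 7 lower in mural than in tumor cells (beside 14.8% and 19.2%). Serpinh1, which folds collagen, was at 160, 176, 185 and 191 CPM in tumor, 911, 1212, 677 and 693 CPM in mural and 2.12, 2.69, 2.27 and 3.48 CPM in myeloid cells. Some listed genes also serve other secreted proteins. Ppib, a prolyl isomerase, was at 875, 1008, 1078 and 962 CPM in tumor and 544, 578, 477 and 485 CPM in myeloid cells. Mia3, which loads procollagen for export, was at 45.2, 46.6, 47.9 and 48.5 CPM in tumor and 47.1, 45.9, 50.1 and 47.3 CPM in myeloid cells, so these classes overlapped.

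Pcolce, which helps trim propeptides, was at 262, 275, 287 and 303 CPM in tumor cells. Lox, the lysyl oxidase that cross-links fibrils, had 1 UMI in tumor cells and was at 776, 0, 145 and 816 CPM in fibroblasts, while its relative Loxl2 was at 17.4, 17.8, 12 and 16.2 CPM in tumor cells. Itga1, a collagen-binding integrin, was at 961, 1006, 1125 and 780 CPM in mural, 313, 452, 433 and 435 CPM in endothelial and 12.8, 17.2, 29.9 and 22.1 CPM in tumor cells. Bmp1, a propeptide protease, was at 101, 226, 5.21 and 43.7 CPM in mural and 37, 38.9, 45.5 and 39.7 CPM in tumor cells. Its shSELP difference was lower in mural than in tumor cells by edgeR (-2.88, adjusted p = 0.0368) and not called by DESeq2, and shSELP 1 holds 1 mural UMI.

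All 41 genes had a position in the annotation, and 9 pairs lay within 500000 bases of each other. Besides Col4a1 and Col4a2, the type IV pairs Col4a3 with Col4a4 and Col4a5 with Col4a6 lay head to head, 71 and 1308 bases apart. Neighbours could differ in class. Col3a1 and Col5a2, 24614 bases apart on chromosome 1, were both in mural cells and fibroblasts, but tumor cells had 912 Col3a1 UMIs and 2 Col5a2 UMIs. Likewise Col6a1 lies 326009 bases from Col18a1 on chromosome 10, and both were in tumor cells, while Col6a2 on its other side had 8 tumor UMIs.

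RefSeq promoters (GRCm38.p6, 250 bases before the start) were found for 32 members, in 35 windows. Of the 10 leading tumor collagens, the 4 with a window free of annotated exons are shown (Col3a1, Col9a1, Col11a1 and Col11a2), since these were high together in tumor cells. Capitals mark matches on either strand to AACAAT (the core letters of SOX factors), to TATAAA (the TATA box) and to CCAAT (the CCAAT box). The first and the last can share letters on opposite strands, and in Col3a1 the SOX core matches of both strands share 2 bases. These occur in 9.42%, 12.4% and 33.8% of 32851 promoters and in 1, 4 and 12 of the members.
Col3a1 (chr1:45311288-45311537, plus strand): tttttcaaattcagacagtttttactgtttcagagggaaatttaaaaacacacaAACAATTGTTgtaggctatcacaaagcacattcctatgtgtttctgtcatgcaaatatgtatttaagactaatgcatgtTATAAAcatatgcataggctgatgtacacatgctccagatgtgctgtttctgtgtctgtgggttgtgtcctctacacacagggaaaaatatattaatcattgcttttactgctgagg
Col9a1 (chr1:24177360-24177609, plus strand): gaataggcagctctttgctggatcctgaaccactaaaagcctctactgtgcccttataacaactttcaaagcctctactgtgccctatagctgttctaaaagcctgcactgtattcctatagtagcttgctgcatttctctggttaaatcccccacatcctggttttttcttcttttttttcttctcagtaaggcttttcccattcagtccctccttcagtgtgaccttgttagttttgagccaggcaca
Col11a1 (chr3:114030290-114030539, plus strand): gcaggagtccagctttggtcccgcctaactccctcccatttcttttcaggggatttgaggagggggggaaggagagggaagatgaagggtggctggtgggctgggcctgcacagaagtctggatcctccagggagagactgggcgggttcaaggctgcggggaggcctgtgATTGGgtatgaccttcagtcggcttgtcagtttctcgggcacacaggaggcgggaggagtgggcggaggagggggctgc
Col11a2 (chr17:34038888-34039137, plus strand): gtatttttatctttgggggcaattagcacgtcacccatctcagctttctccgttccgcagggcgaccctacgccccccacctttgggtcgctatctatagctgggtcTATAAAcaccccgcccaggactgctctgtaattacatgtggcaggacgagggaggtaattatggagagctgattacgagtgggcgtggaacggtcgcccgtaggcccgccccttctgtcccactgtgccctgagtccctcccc
Of the windows shown, only that of Col3a1 held the SOX core, those of Col3a1 and Col11a2 held TATAAA, that of Col11a1 held CCAAT and that of Col9a1 held none. A second Col9a1 window (chr1:24194953-24195202), which overlaps an exon, held 1 CCAAT match. A match is a description of letters and not a site.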

How the data were processed

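The deposited table holds raw UMI counts per gene and cell, in the unit counts. The authors aligned reads to mm10 with Cell Ranger 1.3, left out cells with over 10% mitochondrial transcripts or fewer than 500 genes, and drew cells at random to equal numbers per group. The same limits were applied again here with 13 mitochondrial genes, which left 8726 of 9172 cells.

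Cells were gated on non-collagen markers (Python 3.11.15, scanpy 1.11.5), 1213 falling in no class and 196 in several. Counts were summed per library and class (at least 3 cells) and fitted over all genes with edgeR 4.0.16 in R 4.3.3 (TMM scaling, the filterByExpr filter and quasi-likelihood tests), with Benjamini-Hochberg adjustment over all genes tested and a threshold of 0.05. DESeq2 1.42.0 was the second tool, and Seurat 5.3.0 gave clusters. The fits were tested on simulated data. Intervals are exact 95% and cover counting error only. Named genes were the 5 members with the highest mean CPM per class, both chains of a type, called members, Col3a1 and Col9a2. Others were chosen after their values were seen. The members and lists were chosen with earlier results of these data known. Alternatives were DESeq2, no filter, leaving out each library, a replicate block, thinned cells, other gates, clusters, Scrublet scores and all deposited cells.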

Additional observations from a re-analysis of the deposited data

Results flagged for a closer look

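The shSELP difference of Col27a1 differed between tumor and myeloid cells by -2.38 on the log2 scale (edgeR interaction, adjusted p = 0.00326). It was not called without shSELP 1 (-1.4), nor when myeloid cells without or with microglial genes were used alone (-1.12 and -1.38). It was also not called with DESeq2 (-2.24), thinned cells (-3.12) or stricter gates (-2.0).

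The separate CD11b-positive libraries (1 library per group, 2862 cells each, day 21 by the labels, no test possible) entered no comparison above. Of the 41 collagens 22 are in their table of 14363 genes, with 257 UMIs in 12628177 in the library labelled shNC and 381 in 11445676 in the library labelled shSELP, or 20.4 (95% interval 17.9 to 23.0) and 33.3 (30 to 36.8) CPM. The description of 7 entries of the latter names the negative control. The members with the most UMIs were Col15a1 (73 and 100), Col14a1 (64 and 73), Col27a1 (28 and 26) and Col11a2 (22 and 32).

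Members above the shNC level beyond counting error had shSELP to shNC ratios of 1.51 for Col15a1 (95% counting interval 1.11 to 2.07), 2.54 for Col18a1 (1.16 to 5.97), 2.87 for Col4a2 (1.34 to 6.67), 3.63 for Col11a1 (1.51 to 10.0) and 4.41 for Col3a1 (1.19 to 24.4). With 0 UMIs in shNC, shSELP had 4 for Col4a4, 6 for Col9a1, 7 for Col16a1 and 5 for Col20a1. Counted after these values were seen, 5 of the 14 collagens with UMIs in both libraries were higher in shSELP beyond counting error and 0 lower, beside 23.0% and 12.5% of all 12952 such genes, while of genes with 0 UMIs in shNC, 4 of 8 collagens and 361 of all 893 exceeded the limit that a count of 0 allows. Counting error does not cover the spread between libraries. Beside this, tumor markers (11 in the table) summed to 10.5 and 25.2 CPM, most of all Tubb2b (39 and 72 UMIs), with 2 at 0 in each. Mural markers (6 in the table) summed to 0.792 and 3.32 CPM, with Gm13889 and Vtn the most abundant and 4 and 0 at 0. Endothelial markers (9 in the table) summed to 34.4 and 30.1 CPM, most of all Flt1 (198 and 270 UMIs), with 0 and 1 at 0, and fibroblast markers (6 in the table) to 9.11 and 8.04 CPM, most of all Igfbp6 (45 and 41 UMIs), with 2 and 1 at 0. Their part was not tested.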

How the results depend on the processing

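Of 918 recomputed log2 differences of single collagens, 823 kept direction and side of the threshold, 39 lost the call, 22 gained it and 34 changed sign. The counts of collagens called stayed within 1.5 times in 116 of 139 recomputations, and 35 of 38 summed levels stayed within their spread. The cause of the changes was not tested.

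The count of collagens called in shSELP against shNC was 0 in each class. Without a filter on low counts it was 6 in tumor, 2 in mural, 1 in endothelial and 2 in myeloid cells, and DESeq2 gave 1 in myeloid cells. Leaving out 1 library gave 0 to 5 in tumor, 0 to 2 in mural, 0 to 2 in endothelial and 0 to 1 in myeloid cells, where the lone library left is assumed to vary like the others. With the replicate block it was 1 in endothelial cells, and deviations of same-numbered libraries correlated across genes at -0.053 in tumor, -0.32 in myeloid, 0.039 in endothelial and 0.112 in mural cells.

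Between classes, thinning cells gave 14 (from 23) for mural against tumor, 9 (from 14) for endothelial against mural and 5 (from 8) for myeloid against lymphoid cells, and myeloid cells with microglial genes alone gave 5 for the last. The tumor against myeloid response difference (1 called) was 0 with DESeq2, thinned cells, stricter gates, and myeloid cells with or without microglial genes, and 1 to 2 leaving out a library. The split by microglial genes was chosen after seeing the data. Summed collagen in myeloid cells was 77.6 CPM with microglial genes alone (from 42.7), and in lymphoid cells 29.1 thinned and 31.1 with clusters (from 25.2).

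Signs changed for these log2 values, where leaving out 1 library is given as a range. In tumor cells, shSELP against shNC, Col9a3 became 0.19 with looser gates, 0.11 with clusters and 0.0 without the highest Scrublet scores, and ran from -0.48 to 0.54 over left-out libraries, Col11a1 from -0.92 to 0.08 and Col11a2 from -0.11 to 0.76. In mural cells Col4a2 ran from -1.35 to 0.08, Col18a1 from -3.09 to 1.88 and Col3a1 from -0.96 to 2.02, and Col3a1 became 0.32 with looser gates and 0.02 with the replicate block. In myeloid cells Col15a1 ran from -0.26 to 0.2, Col4a1 from -0.04 to 0.7 and Col4a2 from -0.44 to 0.68, and Col4a2 became -0.09 with stricter gates and -0.05 without the highest Scrublet scores. For mural against tumor cells Col18a1 (0.01) ran from -0.73 to 0.51 and became -0.03 with DESeq2, -0.02 without a filter, -2.13 thinned (a call, adjusted p = 0.0047), -0.47 with stricter gates and -0.09 without the highest Scrublet scores. For endothelial against mural cells Col4a2 became 0.11 thinned. For myeloid against lymphoid cells Col4a1 became -0.21 with microglial genes alone, and Col9a2 ran from -0.07 to 0.41 and became -0.09 thinned and -0.07 with clusters. The response difference of Col4a2, mural against tumor, ran from -1.42 to 1.32.

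Mural group fits, and their difference from tumor cells, could not be run with thinned cells or stricter gates, nor the endothelial group fit without the highest Scrublet scores, where 2 of 17 cells stayed in shNC 1 and the summed level was 1032 CPM (from 1302). Depth limits the mural values of shNC 1 (floor 152 CPM) and the fibroblast libraries of 1 cell (floors 1298 and 1224 CPM).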

Other observations

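Cells in no class (229, 314, 270 and 400, with median depths of 2575, 2764, 2373 and 2451 UMIs) had summed collagen at 419, 229, 247 and 264 CPM. They held 5.27% of collagen UMIs, and cells in several classes held 5.63%. Over all kept cells the collagens were at 515, 261, 299 and 131 CPM.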
